A study of Homo sapiens with 21 samples.

Results

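BRD9 and BRD7 are bromodomain proteins of the SWI/SNF chromatin remodelling complexes, and 8 further genes, SMARCA4, SMARCA2, SMARCB1, SMARCC1, SMARCD1, PBRM1, ARID1A and ARID2, encode subunits of the same complexes. These 10 genes were taken by symbol from the 26475 genes of the deposited count table, and their RNA levels were followed across all 7 groups of the study. All 10 were found in the table and all 10 passed the filter on low counts, as did 15062 genes in all.

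Poly-A RNA was sequenced from the SK-MEL-147 line, derived from a human melanoma and grown in DMEM with serum. The control group was labelled untreated, with no vehicle named, and the other 6 groups were each treated with 1 compound, with 3 libraries in every group. TP-472 is known as an inhibitor of the BRD9 and BRD7 bromodomains, and JQ-1 of the bromodomains of BET proteins. GSK-591 is known as an inhibitor of PRMT5, MS023 of type I protein arginine methyltransferases, GSK-484 of PADI4 and UNC0642 of the lysine methyltransferases EHMT1 and EHMT2. The labels give no dose or time. The replicates are called biological without a statement that they were separate cultures, so p-values measure the spread between these libraries, which may be technical. All groups share 1 cell line, and in such bulk samples fewer cells carrying an RNA and less of it per cell cannot be told apart.

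As background, SWI/SNF complexes use the energy of ATP to slide or eject nucleosomes, and each holds 1 ATPase, SMARCA4 or SMARCA2. They come in several forms. The canonical form, cBAF, carries ARID1A or ARID1B and a DPF protein. The form called PBAF carries PBRM1, ARID2, PHF10 and BRD7, and the non-canonical form, ncBAF, carries BRD9 and BICRA or BICRAL and lacks SMARCB1. SMARCC1 and SMARCD1 are scaffold subunits found in all forms. BRD9 and BRD7, the targets of TP-472, thus mark different forms of the complex. Bromodomains bind acetylated lysines, and an inhibitor acts on the protein, so the RNA level of BRD9 or BRD7 does not check whether TP-472 reached it.

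Library totals were 20978182 to 78776788 expected counts. The untreated libraries stood apart from the treated ones in how RNA level followed the GC content of transcripts. Levels are given as CPM, the counts of a gene scaled to the total of its library after TMM adjustment of that total, which evens out differences in composition between libraries. The slope of log2 CPM on GC content averaged -0.13 per 10 percentage points in the 3 untreated libraries (range -0.18 to -0.097) and 0.022 in the 18 treated libraries (range -0.038 to 0.12), with no overlap. Across the 14564 tested genes with a known GC content (96.7% of those tested), Spearman's correlation of the fold change with GC content was 0.613 for TP-472 and between 0.544 and 0.676 for the other compounds except JQ-1, where it was 0.187. Between TP-472 and JQ-1 directly it was -0.0049. Each comparison with untreated cells is therefore given from 3 fits: against untreated cells, against untreated cells with the GC trend of each library removed, and, with the trend removed, against the other treated groups except JQ-1 (for JQ-1, the other 5). The melanocyte markers SOX10 and MITF and 5 of 5 markers of undifferentiated melanoma were above 1 CPM on average, 7 of 9 lineage markers, PMEL and MLANA among them, were below it, and markers of other cells summed to between 194 and 247 CPM. CD68, KRT18 and KRT8 made up most of that sum. With COL1A1 and PDGFRB, they were the 5 of 14 such markers above 1 CPM on average. Among the others, DCN was at 0 in every library, and PTPRC did not exceed 0.0748 CPM.

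Of the 10 genes, BRD9 and PBRM1 begin beside a gene transcribed the other way that the table also holds. The stretches between the starts are shown because the pairs behaved differently under JQ-1, with sequences from RefSeq on GRCh38.p14, read 5′ to 3′ on the plus strand. Capitals mark the bases between the nearest starts, and the 30 lower-case bases at each end are the first bases of the 2 genes, the SWI/SNF gene to the left.
TRIP13-BRD9, chr5:892772-892913: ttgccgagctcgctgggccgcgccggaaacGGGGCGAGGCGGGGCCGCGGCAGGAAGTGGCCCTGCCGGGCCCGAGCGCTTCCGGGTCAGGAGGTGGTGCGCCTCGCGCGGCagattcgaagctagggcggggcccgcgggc
GNL3-PBRM1, chr3:52685884-52685949: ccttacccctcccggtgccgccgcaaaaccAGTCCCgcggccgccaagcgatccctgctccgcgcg
In RefSeq the starts of BRD9 and TRIP13 lie 83 bp apart, and those of PBRM1 and GNL3 lie 7 bp apart at their closest. GENCODE 29 places the BRD9 and TRIP13 starts differently, so that the 2 genes overlap there. The TRIP13-BRD9 stretch holds 1 match to the ETS core CCGGAAG, on the minus strand, at base 79 from the left. RefSeq promoter windows (250 bases before to 50 after a start) were at hand for 8 of the 10 genes, 14 windows in all. The ETS core was in 2 of them (BRD9, SMARCA2) and in 10.3% of 35116 windows of the same length. The NRF1 core was in 2 (SMARCA4, SMARCB1) against 5.78%, the E-box CACGTG in 1 (PBRM1) against 7.26%, the YY1 core AAGATGGC in 1 (SMARCD1) against 2.89%, CCAAT in 2 (SMARCB1, PBRM1) against 34.6% and TATAAA in 1 (SMARCA2) against 11.5%, on both strands throughout. A match is a description of the letters and not a site.

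All 10 genes were expressed in untreated cells. Per length of transcript (TPM), BRD9 was highest at a median of 134, followed by SMARCD1 at 114, SMARCB1 at 101, SMARCA4 at 88.8 and BRD7 at 76.8. SMARCC1 stood at 39.7, PBRM1 at 31.0, ARID1A at 30.9 and SMARCA2 at 27.6, and ARID2 was lowest at 10.5. The spread between libraries of a group was small, with a median coefficient of variation between 1.44% for SMARCD1 and 5.37% for SMARCC1. The ratio of the highest to the lowest group mean was 2.02 for PBRM1, 1.75 for ARID2, 1.41 for SMARCC1 and 1.31 for SMARCB1, and between 1.07 (BRD7) and 1.21 (SMARCA4, SMARCA2) for the other 6 genes. Without the JQ-1 group these 4 ratios were 1.26, 1.18, 1.15 and 1.21.

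**Figure D1:**
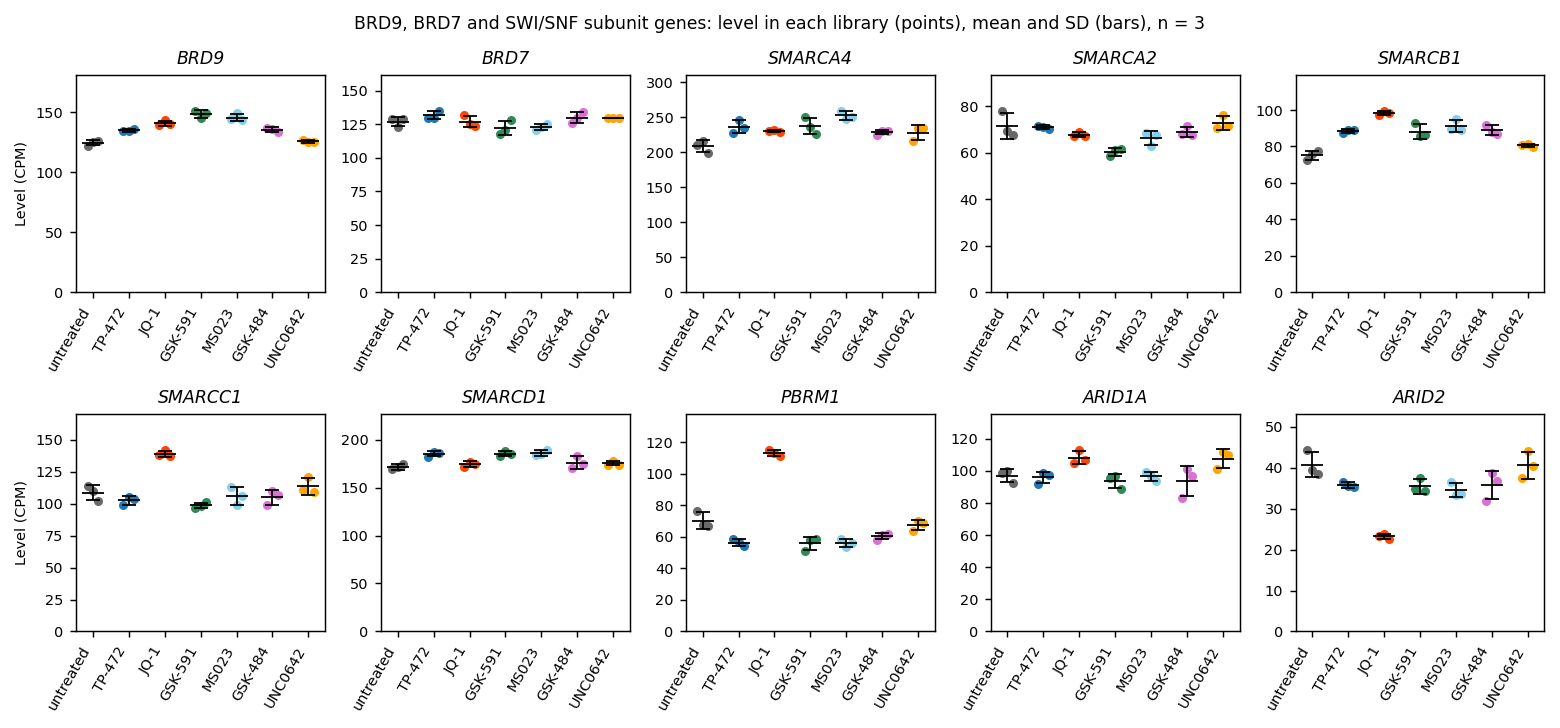
Level of each of the 10 genes in CPM (vertical axes, each from 0) in the 21 libraries (points, coloured by group), with the mean and SD of each group of 3 as black bars. PBRM1 stands at 111 to 115 CPM with JQ-1 and at 51.3 to 76.6 CPM in all other libraries, and ARID2 at 22.7 to 23.9 CPM with JQ-1 and at 31.9 to 44.3 CPM elsewhere.

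BRD9, on chromosome 5 (850291 to 892824, minus strand, GENCODE 29), was higher than in untreated cells with 5 of the 6 compounds, within a narrow range. It stood at 122, 125 and 126 CPM in untreated cells and at 134, 134 and 136 CPM with TP-472. Every TP-472 library lay above every untreated library, at a log2 fold change of 0.12 (SE 0.030, edgeR quasi-likelihood test with Benjamini-Hochberg adjustment, adjusted p = 0.00454). The value was 0.038 (adjusted p = 0.377) with the GC trend removed and -0.040 (adjusted p = 0.214) against other treated groups, so it was called in neither and its direction turned in the last. The call was also lost with no filter on low counts (0.096, adjusted p = 0.0755) and with the 2 groups alone (0.11, adjusted p = 0.0621). GSK-591 had the highest level, at 151, 145 and 149 CPM, followed by MS023 at 144, 149 and 143 CPM and JQ-1 at 139, 143 and 140 CPM. These 3 groups overlapped as neighbours in the order and lay above all libraries of the other 4 groups. With each of the 3 compounds BRD9 rose in all 3 fits: by 0.26, 0.18 and 0.14 on the log2 scale with GSK-591 (adjusted p = 7.18e-06, 0.000143 and 0.000159), by 0.23, 0.13 and 0.079 with MS023 (5.07e-06, 0.00114 and 0.0109), and by 0.18, 0.23 and 0.16 with JQ-1 (1.27e-05, 4.92e-08 and 2.08e-07). For JQ-1 the rise was 0.036 and not called (adjusted p = 0.368) when libraries were scaled to their total counts, a scaling that placed the median of all tested genes at -0.15. With GSK-484 (137, 136 and 133 CPM) BRD9 rose by 0.12 (adjusted p = 0.00837) against untreated cells, and stood at 0.048 and -0.027 in the other fits, neither called. That call was also lost with total-count scaling (0.093), with no filter (0.11) and with the 2 groups alone (0.11), with adjusted p of 0.0749, 0.0595 and 0.207. UNC0642 left it at 127, 125 and 125 CPM, overlapping the untreated libraries (0.013, adjusted p = 0.803).

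TRIP13, a meiosis and mitotic checkpoint ATPase whose start lies beside that of BRD9, did not follow it. It fell from 120, 118 and 121 CPM in untreated cells to 67.2, 65.8 and 68.1 CPM with JQ-1 (log2 fold change -0.84, SE 0.035, adjusted p = 6.70e-16) while BRD9 rose. Their exons overlap by 182 bp in GENCODE 29, though not by the RefSeq starts above, and no strand setting was given. The expected counts of BRD9 were whole numbers in all 21 libraries, so none of its reads was shared out in fractions. Whether reads in that overlap were counted whole for the wrong gene was not tested.

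BRD7, on chromosome 16 (50313487 to 50368934, minus strand), had the group means closest together in CPM, with a highest-to-lowest ratio of 1.07 beside 1.08 for SMARCD1. Its libraries varied more within groups than those of SMARCD1, with a median coefficient of variation of 2.44%. The untreated libraries held 129, 123 and 129 CPM, TP-472 130, 130 and 135 CPM, and JQ-1 132, 125 and 124 CPM. The 7 group means ran from 122 CPM with GSK-591 to 131 CPM with TP-472. With TMM scaling and the GC trend kept, edgeR called BRD7 against untreated cells with 0 of 6 compounds. It had an unadjusted p under 0.05 in none of these comparisons. Its largest value there was -0.051 with GSK-591 (95% interval -0.13 to 0.026), and for TP-472 it was 0.050 (interval -0.026 to 0.13, adjusted p = 0.327). Removal of the GC trend raised it, to 0.14 with TP-472 (adjusted p = 0.00695) and 0.18 with JQ-1 (adjusted p = 4.25e-05). Against other treated groups these were 0.059 (adjusted p = 0.140) and 0.082 (adjusted p = 0.00528). Total-count scaling turned the result the other way. There BRD7 was called lower with JQ-1 (-0.14, adjusted p = 0.00392) and with GSK-591 (-0.12, adjusted p = 0.0393). In those fits the median of all tested genes was -0.15 and -0.058. The last exons of BRD7 overlap those of ADCY7 on the other strand by 3593 bp. ADCY7, an adenylate cyclase, fell from 61.9, 62.1 and 57.0 CPM to 17.4, 16.8 and 18.0 CPM with JQ-1. The expected counts of BRD7 were whole numbers in all 21 libraries, so none of its reads was shared out in fractions. Whether reads of ADCY7 were counted whole in BRD7 was not tested.

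The ATPase SMARCA4 (chromosome 19, 10960825 to 11079426, plus strand) was higher than in untreated cells with every compound, but only in the fit that kept the GC trend. Its levels were 210, 216 and 199 CPM in untreated cells, 228, 246 and 234 CPM with TP-472 and 259, 248 and 250 CPM with MS023, the highest group. The log2 fold changes ran from 0.13 with GSK-484 and UNC0642 to 0.28 with MS023, and all 6 were called (adjusted p from 1.77e-05 to 0.0322). The calls with GSK-484 and UNC0642 were lost without untreated replicate 3. That with GSK-484 was also lost without untreated replicate 1 or any GSK-484 replicate, and that with UNC0642 without UNC0642 replicate 2 or 3. Both were lost with total-count scaling (adjusted p = 0.116 and 0.156), with no filter (0.0614 and 0.0588) and with the 2 groups alone (0.197 and 0.116). The call with JQ-1 was lost with total-count scaling (0.0022, adjusted p = 0.969). With the trend removed the 6 values lay between -0.034 and 0.067 and none was called, and the same held against other treated groups (-0.038 to 0.071). SMARCA4 has the highest transcript GC content of the 10 genes, at 60.8%.

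SMARCA2, the alternative ATPase (chromosome 9, 1980290 to 2193624, plus strand), differed with GSK-591. It stood at 78.0, 69.2 and 67.4 CPM in untreated cells and at 58.5, 61.2 and 61.6 CPM with GSK-591, below every other library of the study. The fall was 0.25 on the log2 scale against untreated cells (log2 fold change -0.25, SE 0.049, adjusted p = 0.000687), and the values of the other fits were -0.23 (adjusted p = 0.00239) and -0.21 (adjusted p = 0.000983). With MS023, at 68.5, 63.0 and 67.4 CPM, it was -0.11 (adjusted p = 0.0661) and not called. Leaving out untreated replicate 3 (-0.15, adjusted p = 0.0187) or total-count scaling (-0.16, adjusted p = 0.0103) made the call. JQ-1, at 67.1, 69.0 and 67.1 CPM, gave -0.08 and no call. There too, leaving out untreated replicate 3 (-0.12, adjusted p = 0.0365) or total-count scaling (-0.22, adjusted p = 0.000332) made it. Against the other treated groups SMARCA2 was called higher with JQ-1 (0.089, adjusted p = 0.0262). Total-count scaling placed the median of all tested genes at -0.060 with MS023 and -0.15 with JQ-1. TP-472 held it at 71.6, 71.2 and 70.0 CPM, inside the untreated range (-0.014, interval -0.11 to 0.086). SMARCA2 was the only gene of the 10 with fractional expected counts, in 10 of 21 libraries, so part of its reads was shared out between transcripts of several genes. The other 9 had whole numbers in all 21 libraries, within 0.005.

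SMARCB1, a core subunit of cBAF and PBAF lost in rhabdoid tumours (chromosome 22, 23786931 to 23838008, plus strand), was highest with JQ-1. It stood at 72.4, 75.8 and 77.4 CPM in untreated cells, 87.3, 89.3 and 89.0 CPM with TP-472 and 97.5, 99.6 and 98.4 CPM with JQ-1. Each JQ-1 library lay above the other 18 libraries. The rise with JQ-1 was 0.39 (SE 0.039, adjusted p = 4.40e-09), and it was 0.35 and 0.29 in the other fits (adjusted p = 1.96e-10 and 2.95e-11). With TP-472, GSK-591, MS023 and GSK-484 it rose by 0.23 to 0.28 against untreated cells, and none of the 4 was called with the GC trend removed (0.068 to 0.099). Its transcript GC content is 59.1%.

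SMARCC1, a scaffold subunit (chromosome 3, 47585272 to 47782106, minus strand), moved most with JQ-1. It was at 114, 110 and 102 CPM in untreated cells, 98.9, 105 and 104 CPM with TP-472 and 138, 142 and 137 CPM with JQ-1. No JQ-1 library overlapped any other. The rise was 0.35 (SE 0.051, adjusted p = 1.82e-06) and grew to 0.47 and 0.48 in the other fits (adjusted p = 2.89e-09 and 1.26e-11). With GSK-591 it fell by 0.14 (log2 fold change -0.14, adjusted p = 0.0382), a call lost without untreated replicate 1 or 2 or without GSK-591 replicate 1 or 2, and in both fits with the GC trend removed (-0.093, adjusted p = 0.196, and -0.11, adjusted p = 0.0585). The highest adjusted p over all settings was 0.211.

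SMARCD1 (chromosome 12, 50084972 to 50100712, plus strand), which links the complexes to DNA-binding factors, kept its group means between 171 and 186 CPM. It was at 169, 171 and 175 CPM in untreated cells, 182, 187 and 186 CPM with TP-472, and 171, 177 and 175 CPM with JQ-1. Against untreated cells it rose by 0.11 to 0.12 with TP-472, GSK-591 and MS023, and these values were 0.023 to 0.038 and not called with the GC trend removed. With total-count scaling they were 0.053 to 0.10, and none was called either. With JQ-1 it was 0.025 (adjusted p = 0.477) against untreated cells and 0.072 (adjusted p = 0.0348) with the trend removed. Scaled to total counts it was called in the other direction, at -0.12 (adjusted p = 0.00895).

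PBRM1 and ARID2, which together define PBAF, moved in opposite directions with JQ-1. PBRM1, a protein with several bromodomains that is often mutated in kidney cancer (chromosome 3, 52545352 to 52685917, minus strand), went from 76.6, 67.5 and 67.0 CPM in untreated cells to 115, 113 and 111 CPM, a 1.61-fold rise. ARID2, the DNA-binding subunit of PBAF (chromosome 12, 45729665 to 45908040, plus strand), went from 44.3, 39.4 and 38.5 CPM to 23.2, 23.9 and 22.7 CPM, 1.75-fold lower. For each gene the 3 JQ-1 libraries lay outside the range of all other 18. The log2 fold change of PBRM1 was 0.68 (SE 0.055, adjusted p = 1.13e-10), 0.85 with the trend removed (adjusted p = 8.98e-14) and 1.01 against the other treated groups (adjusted p = 6.60e-18). That of ARID2 was -0.81 (SE 0.071, adjusted p = 5.07e-10), -0.58 (adjusted p = 1.58e-08) and -0.54 (adjusted p = 1.27e-09). GNL3, a nucleolar GTP-binding protein whose start is 7 bp from that of PBRM1, was at 171, 169 and 176 CPM in untreated cells and at 182, 183 and 182 CPM with JQ-1. Its rise of 0.084 (SE 0.036, adjusted p = 0.0404) was smaller than that of PBRM1, with intervals of 0.0093 to 0.16 and 0.57 to 0.80.

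With the other compounds both PBAF genes tended to lie below untreated cells. PBRM1 stood at 58.7, 56.5 and 54.0 CPM with TP-472, 51.3, 58.0 and 58.5 CPM with GSK-591, 58.6, 53.7 and 56.0 CPM with MS023 and 58.2, 61.4 and 62.1 CPM with GSK-484, all below the lowest untreated library. It fell by 0.32 with TP-472 (log2 fold change -0.32, SE 0.056, adjusted p = 0.000257), and the values were -0.24 (adjusted p = 0.00223) with the GC trend removed and -0.085 (adjusted p = 0.141) against other treated groups. The corresponding 3 values were -0.33, -0.25 and -0.095 with GSK-591 and -0.33, -0.20 and -0.040 with MS023, called in the first and second fits only. With GSK-484 it fell by 0.22 (log2 fold change -0.22, adjusted p = 0.0105), a call lost without untreated replicate 1 or GSK-484 replicate 1, and it was not called in the other fits (-0.16 and 0.015). ARID2 stood at 36.6, 35.5 and 35.3 CPM with TP-472 and fell by 0.19 (log2 fold change -0.19, adjusted p = 0.0366), a call lost without untreated replicate 1 or any TP-472 replicate. It was called as well with GSK-591 (-0.21, adjusted p = 0.0261) and MS023 (-0.24, adjusted p = 0.00636). Both calls were lost without untreated replicate 1, the first also without GSK-591 replicate 1 or 3, and all 3 calls were absent with the trend removed (-0.064 to -0.054). With GSK-484, at 31.9, 38.6 and 36.8 CPM, ARID2 was not called in any of the 3 fits. It was called lower with RLE scaling (-0.20, adjusted p = 0.0480) and total-count scaling (-0.22, adjusted p = 0.0354). No filter (-0.21, adjusted p = 0.0248) and DESeq2 (-0.20, adjusted p = 0.0309) also gave the call, as did leaving out untreated replicate 3 or GSK-484 replicate 2. PBRM1 and ARID2 transcripts have GC contents of 44.0% and 40.8%.

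ARID1A, the cBAF subunit most often mutated in cancer (chromosome 1, 26693236 to 26782110, plus strand), kept its group means between 93.7 and 108 CPM. It was at 98.5, 100 and 92.3 CPM in untreated cells, 92.1, 98.7 and 97.6 CPM with TP-472 and 105, 113 and 107 CPM with JQ-1. The rise with JQ-1 was 0.16 (SE 0.059, adjusted p = 0.0177). It was 0.13 (adjusted p = 0.0698) with the GC trend removed and 0.27 (adjusted p = 1.94e-05) against the other treated groups, and the call was lost without untreated replicate 3 or JQ-1 replicate 2 and with total-count scaling (0.018, adjusted p = 0.806). With GSK-591 and MS023 it was called only with the trend removed, at -0.21 in each (adjusted p = 0.0318 and 0.0258). UNC0642 had it at 101, 112 and 110 CPM, above the untreated libraries without overlap. Against untreated cells edgeR did not call it, with the trend kept or removed. DESeq2 called it (0.16, adjusted p = 0.0454), as did edgeR without UNC0642 replicate 1 (0.21, adjusted p = 0.0320). Against the other treated groups it was 0.24 (adjusted p = 0.00126).

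**Figure D2:**
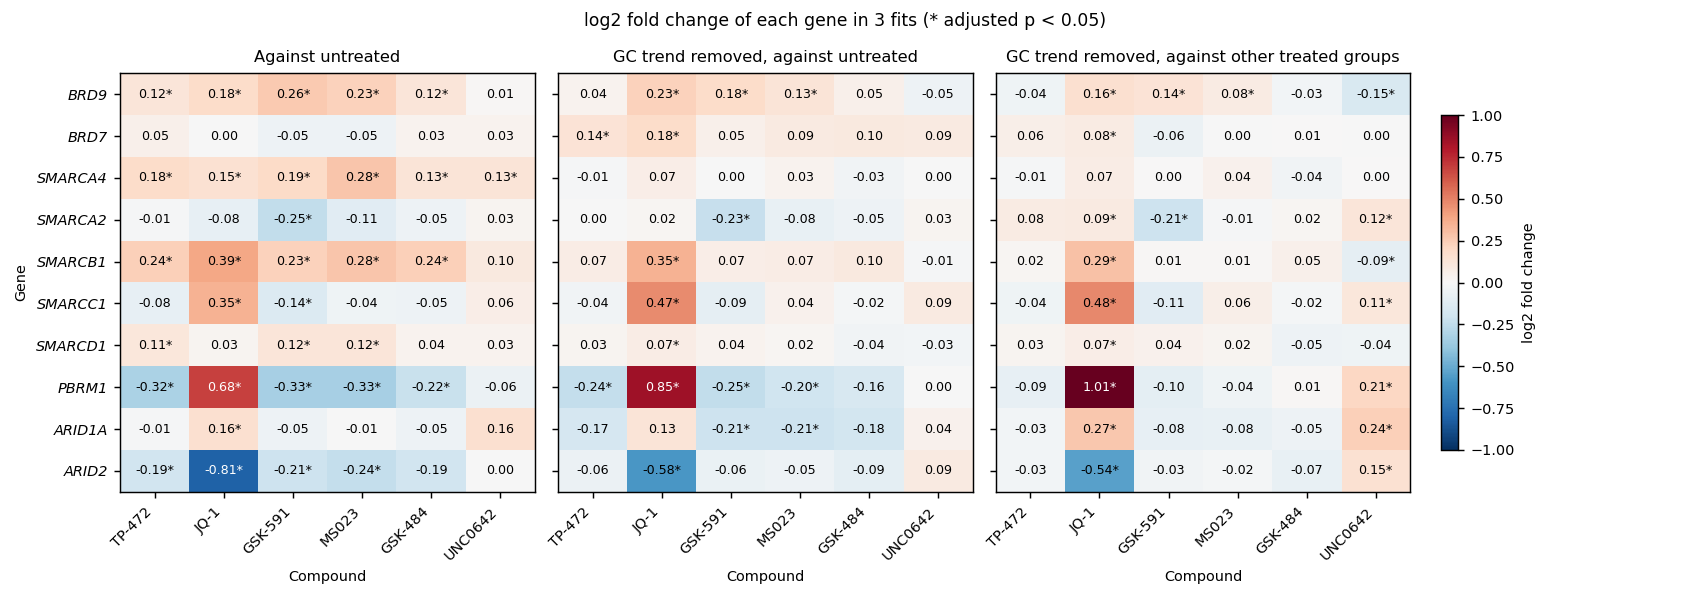
Log2 fold change of each gene (rows) with each compound (columns) in the 3 fits (panels), coloured from blue (lower) to red (higher), with an asterisk where the adjusted p was under 0.05. JQ-1 has 7, 7 and 9 calls across the panels, beside 73.3%, 74.7% and 79.6% of all tested genes. TP-472 has 6, 2 and 0, beside 31.8%, 11.1% and 11.6%. The calls are not all of the same genes from panel to panel.

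Counted over the 10 genes, the calls stood beside the share of all tested genes called in the same comparison. JQ-1 called 7 of 10 (6 higher, 1 lower) against 73.3% of all genes (35.7% higher, 37.6% lower). It called 7 with the GC trend removed (74.7%) and 9 against the other treated groups (79.6%). These shares are near the background. The genes called were not all the same. With the trend removed BRD7 and SMARCD1 were called, and SMARCA4 and ARID1A were not. TP-472 called 6 (4 higher, 2 lower) against 31.8% (17.3% higher, 14.5% lower), then 2 (11.1%) and 0 (11.6%). The 2 were PBRM1 and BRD7, and BRD7 was not among the 6. Against the other treated groups 3 had an unadjusted p under 0.05 by edgeR, and DESeq2 was not run. GSK-591 called 8 (4 higher, 4 lower) against 32.9% (18.1% and 14.8%), then 4 (12.6%) and 2 (11.0%), the 2 being BRD9 higher and SMARCA2 lower. MS023 called 6 (4 higher, 2 lower) against 42.6% (22.0% and 20.6%), then 3 (16.4%) and 1 (14.4%), which was BRD9. GSK-484 called 4 (3 higher, 1 lower) against 19.1% (11.4% and 7.66%), then 0 (0.544%) and 0 (0.252%), with 4 and 2 at an unadjusted p under 0.05. UNC0642 called 1, SMARCA4, higher, against 16.3% (8.71% and 7.54%), then 0 (2.72%), with 1 at an unadjusted p under 0.05. All comparisons with untreated cells share the same 3 control libraries.

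UNC0642 differed when set against the other treated groups. There 7 of 10 genes were called, against 27.2% of all genes (12.9% higher, 14.3% lower): PBRM1 (0.21), ARID1A (0.24), ARID2 (0.15), SMARCA2 (0.12) and SMARCC1 (0.11) were higher, and BRD9 (-0.15) and SMARCB1 (-0.092) were lower. In CPM, BRD9 at 125 to 127 and PBRM1 at 63.9 to 70.3 with UNC0642 overlapped the untreated libraries and none of the 12 libraries of the reference groups.

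The 4 genes that rose with TP-472 against untreated cells, BRD9, SMARCA4, SMARCB1 and SMARCD1, have transcript GC contents of 54.5% to 60.8%, and the 2 that fell, PBRM1 and ARID2, of 44.0% and 40.8%. The 4 genes not called did not all fall into that order. BRD7, at 43.4%, lay at 0.050 (adjusted p = 0.327) although PBRM1 and ARID2, on either side of it in GC content, were lower, and ARID1A, at 58.7%, lay at -0.012 (adjusted p = 0.905). SMARCC1, at 46.7%, was at -0.084 and SMARCA2, at 49.1%, at -0.014.

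**Figure D3:**
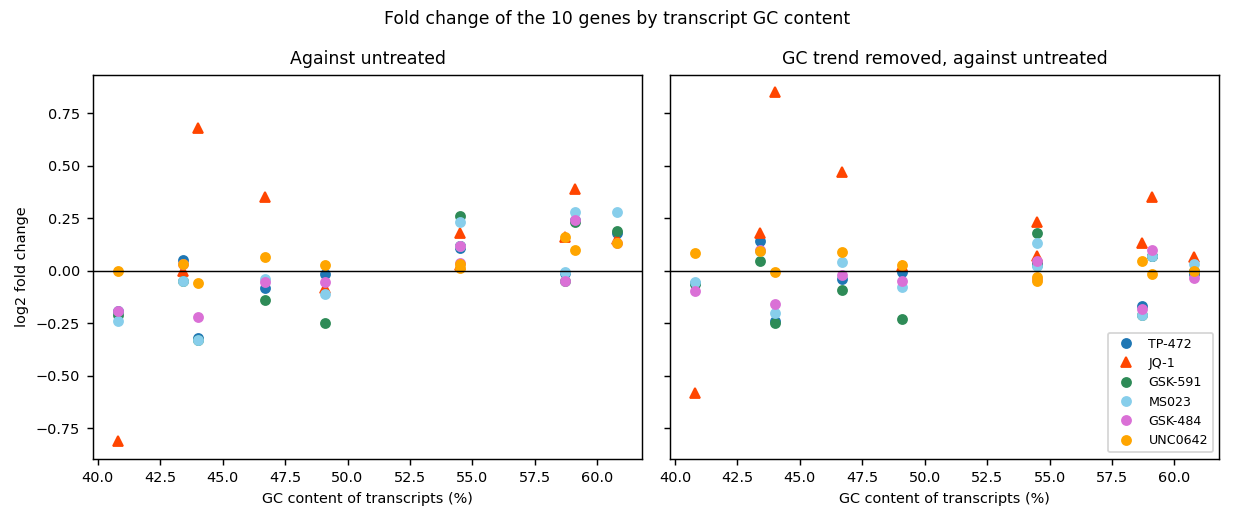
Log2 fold change (vertical axis) of the 10 genes against the GC content of their transcripts in percent (horizontal axis), against untreated cells (left) and with the GC trend of each library removed (right); each point is 1 gene with 1 compound, JQ-1 as triangles. On the left ARID2 at 40.8% lies at -0.24 to -0.0036 and SMARCA4 at 60.8% at 0.13 to 0.28 with the compounds other than JQ-1, and on the right SMARCA4 lies at -0.034 to 0.032 with them.

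The direct comparison of TP-472 with JQ-1 uses no untreated library. It called 6 of the 10 genes, 2 higher and 4 lower with TP-472, against 72.3% of all genes (37.5% higher, 34.8% lower). PBRM1 was lower with TP-472 (54.0 to 58.7 against 111 to 115 CPM, log2 fold change -1.0, SE 0.056, adjusted p = 1.48e-13), as were SMARCC1 (-0.43, adjusted p = 7.42e-08), ARID1A (-0.17, adjusted p = 0.0118) and SMARCB1 (-0.15, adjusted p = 0.00114). The ARID1A call was lost without TP-472 replicate 1 or JQ-1 replicate 2 (-0.14 in each), and with total-count scaling neither ARID1A (-0.039) nor SMARCB1 (-0.019) was called. ARID2 was higher (35.3 to 36.6 against 22.7 to 23.9 CPM, 0.62, SE 0.072, adjusted p = 5.16e-08), and SMARCD1 was higher by 0.085 (adjusted p = 0.0205), which became -0.043 and was not called with the GC trend removed. Its call was also lost with no filter (0.076) and without TP-472 replicate 2 or 3 or JQ-1 replicate 1 (0.070 to 0.076). Neither of the TP-472 targets was called: BRD9 was -0.061 (interval -0.12 to 0.0019, adjusted p = 0.0758) and BRD7 0.050 (interval -0.026 to 0.13, adjusted p = 0.228). BRD9 was called lower with TP-472 with the trend removed (-0.19, adjusted p = 7.79e-07), with RLE scaling (-0.069, adjusted p = 0.0443) and by DESeq2 (-0.070, adjusted p = 0.0353), while with total-count scaling it was 0.074 (adjusted p = 0.0691). That scaling placed the median of all tested genes at 0.15. It called BRD7 higher with TP-472 (0.18, adjusted p = 0.000420). SMARCA4 (0.17, adjusted p = 0.00216) and SMARCA2 (0.20, adjusted p = 0.000945) were called higher there too. With the trend removed BRD7 (-0.035), SMARCA4 (-0.081) and SMARCA2 (-0.026) turned, and none was called.

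The other subunits of the complexes were read from a list of 19 genes, of which 18 were tested and ACTL6B, the neuronal counterpart of ACTL6A, was not. With JQ-1, 16 of 18 were called, 7 higher and 9 lower, with a median of -0.13 against -0.0064 over all genes, in a comparison that called 73.3% of all genes. With the GC trend removed 14 were called (6 higher, 8 lower), against 74.7%. The largest rises were in DPF3, a histone-reading subunit of cBAF (18.9 to 20.5 CPM untreated, 33.7 to 35.0 CPM with JQ-1, log2 fold change 0.82, adjusted p = 4.45e-12), BCL7B (0.62, adjusted p = 3.79e-08) and SMARCD2, a counterpart of SMARCD1 (0.37, adjusted p = 1.88e-09). The largest falls were in BICRAL, listed as GLTSCR1L, a partner of BRD9 in ncBAF (10.2 to 12.9 CPM untreated, 5.70 to 6.58 CPM with JQ-1, -0.89, adjusted p = 1.37e-07), ARID1B, the alternative to ARID1A (42.2 to 45.5 CPM, then 23.4 to 25.4 CPM, -0.88, adjusted p = 1.77e-10), and PHF10, a PBAF subunit (49.5 to 56.3 CPM, then 27.6 to 29.8 CPM, -0.87, adjusted p = 5.95e-13). None of these 6 groups of JQ-1 libraries overlapped the untreated ones, and all 6 genes were called in the same direction with the GC trend removed (0.89, 0.55, 0.38, -0.72, -0.83 and -0.72). The paralogue of BICRAL, BICRA (listed as GLTSCR1), rose by 0.33 (adjusted p = 0.000202), and stood at 0.13 (adjusted p = 0.162) with the trend removed.

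**Figure D4:**
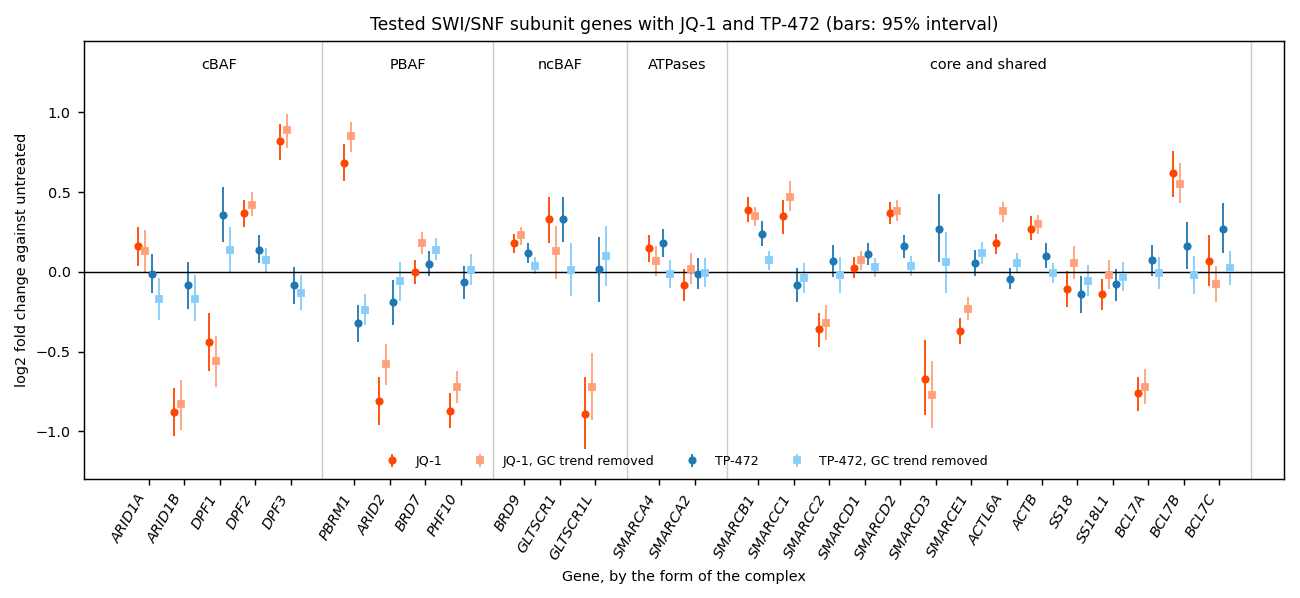
Log2 fold change against untreated cells (vertical axis, bars the 95% interval) of the 10 genes and the 18 other tested subunits (horizontal axis, grouped by form of the complex), with JQ-1 (orange) and TP-472 (blue), before (circles, darker) and after (squares, paler) removal of the GC trend. JQ-1 spreads the genes from -0.89 (GLTSCR1L) to 0.82 (DPF3) before removal, TP-472 from -0.32 (PBRM1) to 0.36 (DPF1).

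With TP-472, 7 of the 18 other subunits were called, all higher, against 31.8% of all genes: DPF1 (0.36, adjusted p = 0.00220), GLTSCR1 (0.33, adjusted p = 0.00110) and SMARCD3 (0.27, adjusted p = 0.0440) rose most, followed by BCL7C, SMARCD2, DPF2 and ACTB. With the GC trend removed 1 was called, SMARCE1 (0.12, adjusted p = 0.0236), against 11.1% of all genes. Against other treated groups 3 were, beside 11.6% of all genes, DPF1 (0.23) and BCL7C (0.13) higher and DPF3 (-0.13) lower. GSK-591 called 7 of 18 against 32.9% of all genes, with SMARCD3 (0.45), GLTSCR1 (0.38) and DPF2 (0.17) rising most, and PHF10 fell by 0.30 (log2 fold change -0.30, adjusted p = 0.000162) and was called lower in all 3 fits (-0.22 and -0.24 in the others). The GSK-591 count fell to 3 with the trend removed (12.6% of all genes) and 3 against other treated groups (11.0%). MS023 called 10 of 18 against 42.6%, SMARCD3 (0.52), GLTSCR1 (0.40) and DPF2 (0.26) rising most and SS18 (-0.20) and ACTL6A (-0.13) falling. With MS023 the counts fell to 2 with the trend removed (16.4%) and 3 against other treated groups (14.4%). DPF2 rose in all 3 fits with MS023 (0.19 and 0.11 in the others). GSK-484 called BCL7A (0.24), GLTSCR1 (0.24), DPF2 (0.15) and ACTL6A (-0.11), 4 of 18 against 19.1%, and 0 with the trend removed (0.544%), where 3 had an unadjusted p under 0.05 by edgeR. UNC0642 called GLTSCR1 (0.33), SS18 (-0.16) and ACTL6A (-0.12), 3 of 18 against 16.3%, then 1 (2.72%) and 4 (27.2%). TP-472 differed from JQ-1 in 15 of 18 against 72.3%: SMARCD3 (0.94), GLTSCR1L (0.90) and BCL7A (0.84) were highest with TP-472 and DPF3 (-0.90), BCL7B (-0.46) and DPF2 (-0.22) lowest.

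A pair of gene sets outside the complexes, ATPases of other remodellers and bromodomain genes outside the BET family, were counted beside them. With JQ-1, 13 of 17 such ATPases (2 higher, 11 lower, median -0.34) and 23 of 31 bromodomain genes (8 higher, 15 lower, median -0.063) were called, 76.5% and 74.2%, near the 73.3% of all genes. With TP-472 the counts were 7 of 17 (all lower, median -0.13) and 16 of 31 (4 higher, 12 lower, median -0.083), beside 31.8% of all genes. With the GC trend removed they were 0 and 6, beside 11.1%, and 6 of the 17 ATPases then had an unadjusted p under 0.05 by edgeR. The 10 genes had medians of 0.15 with JQ-1 and 0.019 with TP-472.

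Ratios between 2 subunits that fill the same or a neighbouring place were taken within each library, so that scaling between libraries drops out. With JQ-1 the log2 ratio of PBRM1 to ARID2 in CPM was 2.28 ± 0.035 (SD, n = 3) against 0.79 ± 0.011 in untreated cells, a difference of 1.49, and of 1.43 with the GC trend removed. That of ARID1A to ARID1B went from 1.13 ± 0.010 to 2.17 ± 0.019, that of SMARCC1 to SMARCC2 from -0.11 ± 0.038 to 0.60 ± 0.038, and that of SMARCD1 to SMARCD2 from 1.26 ± 0.024 to 0.92 ± 0.034. The JQ-1 and untreated values did not overlap for any of these pairs, before or after removal of the trend. The log2 ratio of SMARCA2 to SMARCA4 was -1.54 ± 0.11 in untreated cells and -1.97 ± 0.11 with GSK-591, a difference of -0.43, which was -0.23 with the trend removed. With MS023 the difference was -0.39, and -0.11 with the trend removed, without overlap in either. It was -0.19 with TP-472, -0.22 with JQ-1 and -0.19 with GSK-484, without overlap. These became 0.013, -0.043 and -0.013 with the trend removed, and overlapped the untreated values. The ratio of BRD9 to BRD7 was -0.031 ± 0.048 in untreated cells, 0.038 ± 0.022 with TP-472, which overlapped it, and 0.28 ± 0.071 with GSK-591. The TP-472 difference was 0.069 as measured and -0.10 with the trend removed. With MS023 and JQ-1 the BRD9 to BRD7 differences were 0.27 and 0.18, without overlap. They were 0.041 and 0.049 with the trend removed, where the JQ-1 values overlapped the untreated ones. In the two-sided exact permutation test, 3 libraries against 3 cannot go below p = 0.1, and over the 42 tests (7 pairs, 6 compounds) the smallest adjusted p was 0.140, so none passed.

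**Figure D5:**
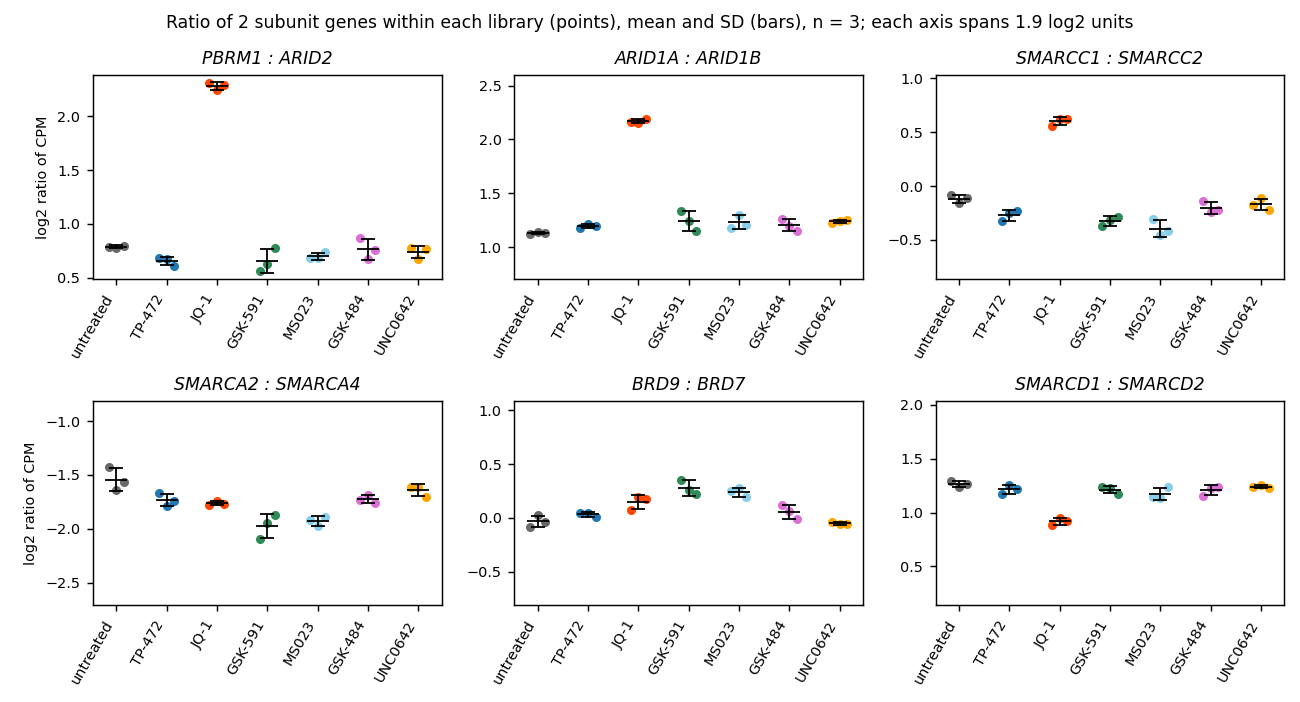
Log2 ratio of the CPM of 2 subunit genes within each library (points) for 6 pairs, with the mean and SD of each group of 3 (black bars); every vertical axis spans the same range of log2 units. The JQ-1 libraries stand above all others for PBRM1 to ARID2, ARID1A to ARID1B and SMARCC1 to SMARCC2, and below all others for SMARCD1 to SMARCD2.

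Genes with the group pattern most like each of the 10 were ranked by Pearson's r over the 7 group means of log2 CPM, among 9569 genes with a mean of at least 10 CPM. With 7 points that share libraries and, for several genes, 1 outlying group, such values are a description. Nearest to BRD9 were PLIN3 (r = 0.996), LIME1 (0.995) and MAP2K3 (0.985), and with the GC trend removed CDK7 (0.997), TPRA1 (0.997) and WTAP (0.990). Nearest to BRD7 was MIPEP at 0.882, lower than for any other of the 10. PBRM1 was nearest to DYNC1LI2 (0.998), FAM126A (0.998) and CEP290 (0.996), and ARID2 to TCF12, CACNA2D1 and SENP7 (0.996 each). KIAA0430 was the nearest to SMARCC1 both before (0.998) and after (0.997) removal of the trend. The other nearest genes were RTEL1 for SMARCA4 (0.991), EPRS for SMARCA2 (0.959), CDK11A for SMARCB1 (0.995), RPL29 for SMARCD1 (0.980) and SOGA3 for ARID1A (0.988).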

How the data were processed

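Poly-A RNA of 21 SK-MEL-147 libraries, 7 groups of 3, was sequenced. The deposited table holds expected counts for 26475 genes, made by the authors with Bowtie2 2.1.0 and RSEM 1.2.15 on hg38, per the submitters' processing notes (annotation and strand setting: not given in the sources used here). Members and gene lists were chosen with earlier results of these data known, and the GC and reference fits were listed for the same reason.

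Expected counts were rounded, filtered with filterByExpr (minimum count 10, total 15), scaled by TMM and fitted over all 21 libraries with edgeR 4.0.16 (R 4.3.3). Quasi-likelihood tests were two-sided, and the call was a Benjamini-Hochberg adjusted p below 0.05 over 15062 genes. CPM use TMM-scaled totals. The GC trend was a loess fit per library (span 0.3, prior count 2) on transcript GC content from GENCODE 29, the median over basic transcripts with at least 90% of the longest coding length, used as offsets. No 2 libraries of a group held identical values. The comparison of TP-472 with untreated cells was run on simulated counts, before and after GC removal. Those counts held no added GC trend, or a straight one in the untreated libraries. The fit against other treated groups was not simulated, and the outcomes are not given here. Alternatives were DESeq2 1.42.0, RLE and total-count scaling, no filter, a replicate block, the 2 groups alone and leaving out each library. The rule for named genes took the 10 members, the 3 called other subunits with the largest rise and fall per comparison, the 3 genes nearest in pattern and neighbours with a start within 1 kb; the text gives part of the pattern genes. ADCY7 was named for its overlap. Beyond counting error, the common coefficient of variation between libraries of a group was 5.09%.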

Additional observations from a re-analysis of the deposited data

How the results depend on the processing

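The alternative settings include the fit against other treated groups, which changes the comparison itself and not only the processing. Over 1040 fold changes of the 10 genes under alternative settings, 816 kept their direction and side of the threshold, 107 lost the call and 33 gained one. Of the others, 24 turned direction with a call on at least 1 side, and 60 turned with a call on neither, to values between -0.081 and 0.093 (BRD7 with GSK-591 and ARID1A with TP-472 among them). All 15 settings tried kept the call for PBRM1, ARID2, SMARCB1 and SMARCC1 with JQ-1, for BRD9 with GSK-591 and MS023, and for SMARCA2 with GSK-591. For JQ-1, and for TP-472 against JQ-1, every count of called genes stayed within 1.5 times its value.

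Removal of the GC trend, alone and with the replicate block, gave 2 genes called of the 10 for TP-472, 4 for GSK-591, 3 for MS023, 0 for GSK-484 and 0 for UNC0642, and 1, 3, 2, 0 and 1 (0 with the block) of the other subunits. Of all 15062 tested genes, 1676, 1905, 2464, 82 and 409 were called with the trend removed, and 1571, 1813, 2374, 66 and 327 with the block added. With the other treated groups as reference the 10 gave 0, 2, 1, 0 and 7, and the other subunits 3, 3, 3, 0 (and 4 for UNC0642). There 1742, 1658, 2168, 38 and 4093 of all genes were called. Other counts that moved are given with the number of all tested genes called in the same fit. With the 2 groups alone they were 4 other subunits for TP-472 (3905 of 14443 genes). They were 0 of the 10 and 0 other subunits for GSK-484 (9 of 14430) and 0 of the 10 for UNC0642 (1538 of 14627). Total-count scaling gave 2 other subunits for GSK-484 (2532 of 15062) and 0 of the 10 for UNC0642 (2338 of 15062). For UNC0642, 0 of the 10 were called with no filter (2271 of 21776) and 2 with DESeq2 (2761 of 15062). For the counts of the next sentence the share of all genes is not given. Leaving out 1 library gave 3 to 8 other subunits for TP-472 (3 without untreated replicate 1, 4 without TP-472 replicate 2 or 3), 2 to 4 of the 10 (2 without untreated replicate 1 or GSK-484 replicate 1) and 1 to 8 other subunits for GSK-484, and 0 to 2 of the 10 and 1 to 2 other subunits for UNC0642.

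Where either value was called, directions turned with the GC trend removed for SMARCA4 (TP-472 -0.014, GSK-591 -0.0021, GSK-484 -0.034, UNC0642 -0.0019; GSK-591 -0.0018 with the block), BRD7 with JQ-1 (0.18) and SMARCD1 in TP-472 against JQ-1 (-0.043). Against other treated groups they turned for BRD9 (TP-472 -0.040, GSK-484 -0.027, UNC0642 -0.15), SMARCA4 (TP-472 -0.012, GSK-484 -0.038), PBRM1 (GSK-484 0.015, UNC0642 0.21), BRD7 (JQ-1 0.082), SMARCA2 (JQ-1 0.089), SMARCB1 (UNC0642 -0.092) and ARID2 (UNC0642 0.15), and with total-count scaling for SMARCD1 with JQ-1 (-0.12). Of the ratios, BRD9 to BRD7 turned with the trend removed for TP-472 (-0.10) and GSK-484 (-0.052), SMARCA2 to SMARCA4 (0.013) and ARID1A to ARID1B (-0.0031) for TP-472, and ARID1A to ARID2 for TP-472 (-0.11), GSK-591 (-0.15), MS023 (-0.15), GSK-484 (-0.095) and UNC0642 (-0.037). These differed from untreated without overlap on at least 1 side. With overlap on both, the trend removed also turned SMARCA2 to SMARCA4 (0.031), SMARCC1 to SMARCC2 (0.032) and SMARCD1 to SMARCD2 (0.00043) for UNC0642 and SMARCC1 to SMARCC2 (0.017) for GSK-484, and 2 ratios turned on leaving out 1 library (BRD9 to BRD7 for UNC0642, 0.0061; PBRM1 to ARID2 for GSK-484, 0.024). Beyond the GC fits' own construction, the cause was not tested.

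No pairing of libraries by replicate number was stated. In the groups compared, deviations of same-numbered libraries from their group means correlated between -0.13 and 0.12. Differently numbered libraries were not correlated, so these values cannot settle whether the replicates were paired. With the replicate block, 6 of the 10 were called for TP-472 (4654 of all 15062 tested genes) and 7 for JQ-1 (11000 of 15062). These counts of the 10 were the same without it, and the block moved no count of the 10.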
